A study of Mus musculus with 12 samples.

Results

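Germline genes whose promoters are kept methylated in body cells were examined in T cells treated with the DNA methyltransferase inhibitor 5-azacytidine (AzaC). The set held 39 gene symbols, listed by name from knowledge of the class; no array value enters that rule, although earlier results of these arrays were known when the set was drawn up. Of these, 35 were measured, meaning that a row of the array table carried that symbol alone, out of 22180 genes measured the same way. Sycp3 (a lateral element protein of the synaptonemal complex) shared its row with Chpt1, Tuba3a and Tuba3b (testis alpha-tubulins) shared both of their rows with each other, and Fkbp6 (a co-chaperone of the piRNA pathway) had no row under its name. DNA methylation itself was not measured here.

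The arrays recorded RNA of 2 sorted mouse T cell populations with and without the drug, with 3 arrays in each of 4 groups. The nTregs (CD4+DsRed-Foxp3GFP+) came from spleens of B6.Foxp3GFP mice, and the CD4 effector cells (CD4+DsRed+Foxp3GFP-, called CD4 cells here) came from B6.Foxp3GFP x B6.CAGDSRED mice whose T cells had been depleted of Tregs. All samples carried the strain label of a cross of B6.Foxp3GFP with the line B6.Cg-Tg(CAG-DsRed*MST)1Nagy/J, in which the broadly active CAG promoter drives the red protein, while GFP reports Foxp3. The populations were cultured together, 1 nTreg to 10 effector cells, with anti-CD3/CD28 beads and IL-2 for 2 days, and then with 1 µM AzaC or with PBS for 2 more days before sorting. The 4 groups were thus nTregs with AzaC, nTregs with PBS, CD4 cells with AzaC and CD4 cells with PBS. The labels do not say whether the replicates of a group were separate animals or cultures, so the p-values reflect only how far these arrays spread, and that spread may be technical. The precision is limited by the 3 arrays of each group.

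In the mouse, promoters of many germline genes gain DNA methylation around implantation through Dnmt3a and Dnmt3b, and Dnmt1 with its partner Uhrf1 copies the marks at each division. Repressor complexes that recognise E2F-type sites and E-boxes, among them the E2F6 and MGA complexes, act on the same promoters. AzaC, an analogue of cytidine, enters DNA and RNA and traps DNA methyltransferases, so that dividing cells lose methylation. In other cell types members of this class are among the genes that come on when DNA methylation is lost.

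The promoters of 5 genes are printed because they span the set: Rec8, Stag3 and Rhox5 carry the values described most closely, and Dazl and Ddx4 are classical germ cell genes with dense CpGs and dim array values. Each is the RefSeq window of mouse build GRCm38.p6 that runs from 250 bases before to 50 bases after the start of the gene, 5′ to 3′ on the strand of the gene, with each CpG in capitals. The Rec8 window is at chr14:55617916-55618215 on the plus strand and the Stag3 window at chr5:138280259-138280558 on the plus strand. The Rhox5 window is at chrX:37754358-37754657 on the plus strand, the Dazl window at chr17:50293571-50293870 on the minus strand and the Ddx4 window at chr13:112652261-112652560 on the minus strand.
Rec8: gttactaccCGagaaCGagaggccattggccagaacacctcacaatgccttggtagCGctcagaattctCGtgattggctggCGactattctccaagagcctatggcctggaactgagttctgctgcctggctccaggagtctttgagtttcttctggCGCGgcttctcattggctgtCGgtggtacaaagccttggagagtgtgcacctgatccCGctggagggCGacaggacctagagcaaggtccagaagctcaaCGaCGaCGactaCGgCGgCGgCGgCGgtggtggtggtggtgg
Stag3: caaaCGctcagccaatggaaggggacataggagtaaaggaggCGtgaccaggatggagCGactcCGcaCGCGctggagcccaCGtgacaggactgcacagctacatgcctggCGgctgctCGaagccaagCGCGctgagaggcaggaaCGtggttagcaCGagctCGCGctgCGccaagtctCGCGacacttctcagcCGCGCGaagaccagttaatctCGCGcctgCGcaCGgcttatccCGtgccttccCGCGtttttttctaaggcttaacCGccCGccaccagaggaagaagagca
Rhox5: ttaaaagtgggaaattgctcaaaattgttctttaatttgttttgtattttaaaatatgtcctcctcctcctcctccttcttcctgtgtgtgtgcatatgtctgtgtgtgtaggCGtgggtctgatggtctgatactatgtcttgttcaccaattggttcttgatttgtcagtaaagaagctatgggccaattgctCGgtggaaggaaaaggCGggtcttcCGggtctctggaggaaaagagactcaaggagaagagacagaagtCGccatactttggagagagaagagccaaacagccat
Dazl: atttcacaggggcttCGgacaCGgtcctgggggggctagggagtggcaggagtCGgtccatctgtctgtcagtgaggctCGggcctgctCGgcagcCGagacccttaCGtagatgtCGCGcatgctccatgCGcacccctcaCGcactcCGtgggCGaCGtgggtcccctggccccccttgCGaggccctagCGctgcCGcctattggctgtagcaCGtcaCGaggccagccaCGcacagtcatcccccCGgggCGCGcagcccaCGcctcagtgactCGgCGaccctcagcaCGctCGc
Ddx4: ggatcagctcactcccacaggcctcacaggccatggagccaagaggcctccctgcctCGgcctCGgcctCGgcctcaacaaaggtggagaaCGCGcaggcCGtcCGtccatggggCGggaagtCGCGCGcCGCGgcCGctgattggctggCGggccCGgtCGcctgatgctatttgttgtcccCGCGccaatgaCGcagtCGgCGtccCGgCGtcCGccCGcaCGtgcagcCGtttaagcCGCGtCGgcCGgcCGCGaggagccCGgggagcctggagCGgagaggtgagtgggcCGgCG

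These windows held 18 CpGs for Rec8, 30 for Stag3, 5 for Rhox5, 28 for Dazl and 38 for Ddx4. A window was found for 34 of the 39 symbols, all but Piwil2, Tex11, Tex15, Spo11 and Dppa3. Where a gene had several windows, the one with the most CpGs was taken, here and for all genes. The germline windows held a median of 18 CpGs, from 5 for Rhox5 to 38 for Ddx4, against a median of 8 in all 27025 genes with a window and of 15 in the 16990 of those that were measured. Their median GC content was 60.5%, against 53.3% in all genes with a window and 57.3% in those measured. Their median ratio of observed to expected CpGs was 0.685, against 0.413 and 0.610. The middle of the germline set thus held more CpGs than the middle of all windows, and Rhox5 held the fewest of the set.

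The hexamer TCCCGC, the core of the site bound by E2F6, was searched on both strands. It was in 15 of the 34 germline windows (44.1%), against 21.1% of all windows and 27.3% of those of measured genes. The E-box CACGTG, which reads the same on both strands, was also in 15 (44.1%), against 7.39% and 8.33%. At least 1 of the 2 was in 23 (67.6%), against 26.3% and 32.6%. Both letter strings contain a CpG, and they were counted without regard to whether they overlapped. Of the printed windows, Ddx4 and Stag3 held both strings, Rec8 held TCCCGC, and Dazl and Rhox5 held neither. These matches describe letters only.

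By the yardstick described here, most of the germline genes lay at the dim end of the array in all groups. Array signal is given on the log2 scale throughout. Odorant receptor genes, which T cells are not known to use, served as the yardstick: the means of 1105 of them over the 12 arrays had a median of 4.52 and a 95th percentile of 6.82, and a gene above that percentile was taken to be above the dim end. Of the 35 measured germline genes, 6 (17.1%) were above it, against 53.0% of all genes, and 29 were at or below it. Against the 95th percentile of each single array, 7, 6 and 7 were above with AzaC in nTregs, and 5, 5 and 4 with PBS. In CD4 cells 6, 5 and 6 were above with AzaC, and 5, 5 and 4 with PBS. That percentile itself moved, from 6.78 to 6.83 in nTregs with AzaC and from 6.88 to 7.10 with PBS. In CD4 cells it ran from 6.85 to 6.96 with AzaC and from 6.79 to 6.83 with PBS. These counts by array were not tested. The germline means ran from 3.90 to 8.35 with a median of 5.90, and 4 of them, Hormad1, Sycp1, Taf7l and Tex11, were below the median odorant receptor gene. Probe sets differ in brightness, so these values place a gene against the dim end and do not rank genes by RNA amount.

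The 6 genes above the dim end were Rec8 (8.35), Stag3 (7.93), Spo11 (7.76), Tex19.1 (7.48), Tex15 (6.97) and Piwil4 (6.86). Just below it were Rhox5 (6.70) and Tex14 (6.69). With the 90th percentile of the odorant receptors as the limit, 11 germline genes would be above it. With the 25th percentile of all genes (5.89) as the limit, 18 would be, so the statement that most were dim depends on the yardstick. Reference annotation places other genes across the loci of Stag3 (Gal3st4 and Gpc2), Spo11 (Gm52538) and Piwil4 (Gm10706, Gm34651 and Gm15586), while none overlapped Rec8, Tex19.1, Tex15 or Rhox5. The probe sequences were not used here, so signal from those overlapping genes, or from close paralogs of Tex19.1 and Rpl10l, cannot be told apart from the named gene.

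By role, the cohesins of meiosis gave the highest share above the dim end. Rec8, the kleisin subunit that holds sister chromatids through the first meiotic division, and Stag3, its meiosis-specific partner, were above it, and Smc1b, the meiotic SMC subunit, averaged 5.69. Among recombination genes Spo11, which makes the meiotic double-strand breaks, was above it, whereas the recombinase Dmc1 averaged 6.27 and the X-linked crossover factor Tex11 4.18. Of 10 measured genes of the piRNA pathway and transposon control, 3 were above it: Tex19.1, which restrains retrotransposons, Tex15, which acts in piRNA-directed methylation in fetal male germ cells, and Piwil4 (MIWI2), the nuclear PIWI protein of those cells. The PIWI proteins Piwil1 and Piwil2 averaged 6.22 and 6.09, the helicase Mov10l1 6.53, the tudor proteins Tdrd1 and Tdrd9 6.28 and 6.44, and Mael and Asz1 5.46 and 4.65.

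No member of the other groups was above it. The germ cell RNA regulators averaged 5.77 for the RNA-binding protein Dazl, 5.09 for the helicase Ddx4 (mouse vasa homologue) and 4.75 for the tudor protein Stk31. The synaptonemal complex and axis genes Syce1, Sycp2, Sycp1 and Hormad1 averaged 6.31, 4.97, 4.00 and 3.90. The transcription and chromatin genes ran from 6.70 for the homeobox gene Rhox5 through Dmrtb1 (6.44, a DM-domain factor of spermatogonia), Brdt (5.90, the testis bromodomain protein), Zfp42 (5.72, the pluripotency factor Rex1), Dppa3 (5.70, a maternal factor that protects methylation in the zygote) and Sohlh2 (5.44, a gametogenesis factor) to Taf7l (4.11, a germ cell TFIID subunit). The remaining genes were Tex14 (6.69, of intercellular bridges), Dpep3 (6.12, a testis dipeptidase), Tex101 (5.56, a sperm surface protein), Slc25a31 (5.21, a testis ADP/ATP carrier) and Rpl10l (4.66, a ribosomal protein paralog).

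**Figure D1:**
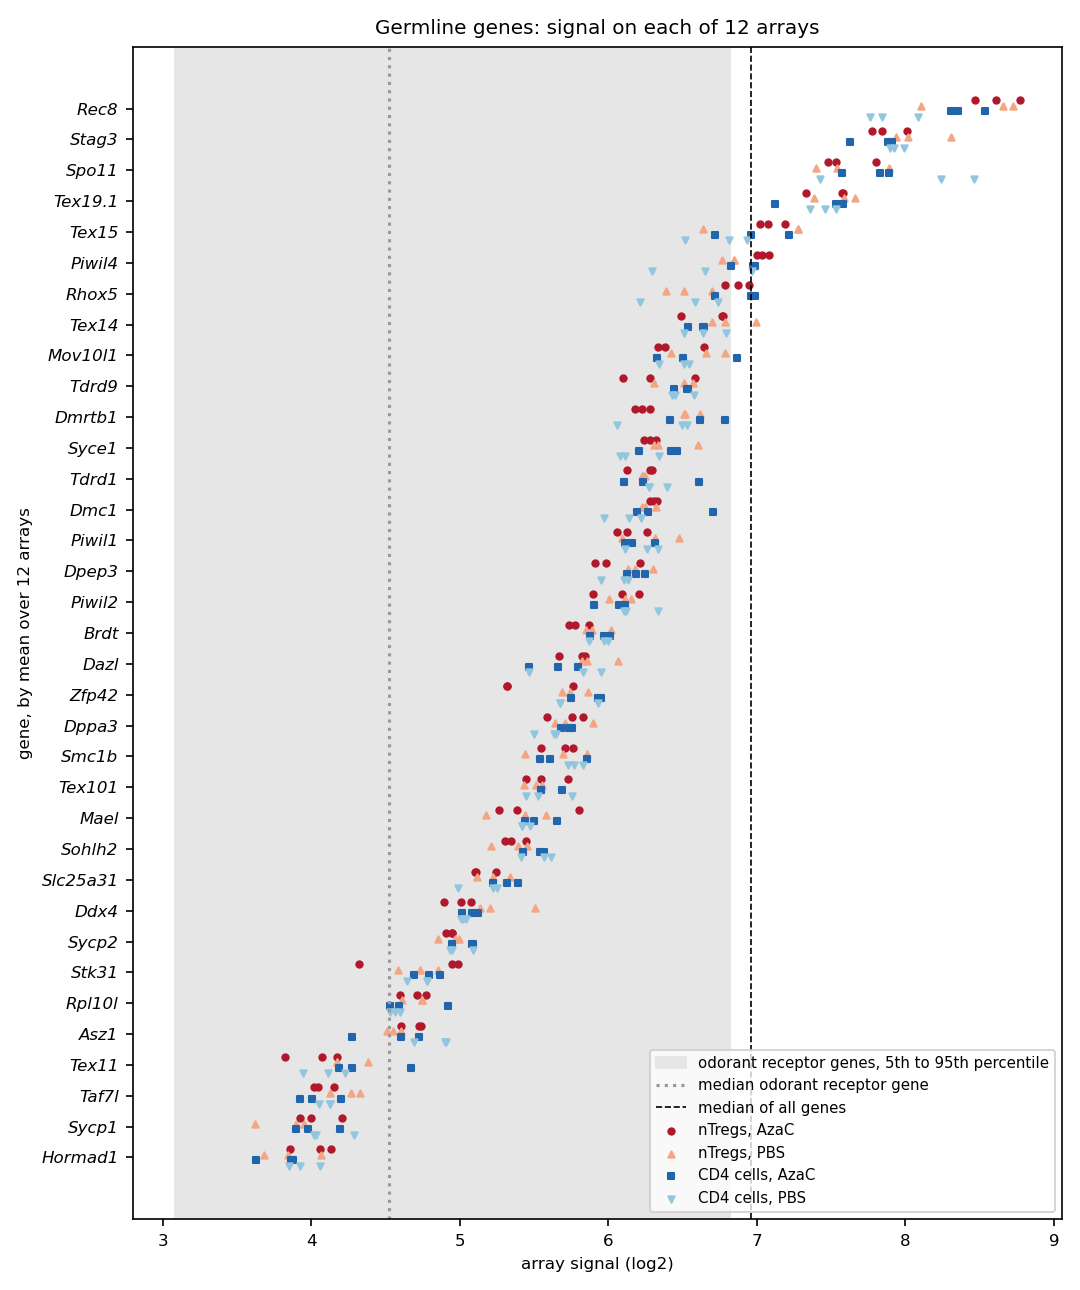
Array signal (log2, horizontal axis) of each measured germline gene on each of the 12 arrays, with genes ordered from top to bottom by their mean and the 4 groups as separate colours and marks. The grey band spans the 5th to 95th percentile of odorant receptor genes (3.08 to 6.82), the dotted line is their median and the dashed line the median of all genes (6.96). The points of most genes fall inside the grey band in all 4 groups.

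Some of the dim values were identical between arrays to 5 decimals. This was so for 11 of the 35 germline genes (31.4%), all of them at or below the dim end, against 13.3% of all genes and 17.8% of odorant receptor genes. Sycp2 had such repeated values on 4 arrays, and Asz1, Tex101 and Slc25a31 on 3 each. Array signal near background also compresses differences, so the fold changes of dim members are understated if RNA changed.

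One array, replicate 1 of the nTregs with PBS, stood apart. It correlated with the remaining arrays at 0.972 on average, against 0.979 for replicate 3 of the CD4 cells with PBS and 0.983 to 0.987 for the others. Its odorant receptor genes reached 7.10 at the 95th percentile, against 6.78 to 6.96 on the other arrays, and it gave the highest value of its group for 21 of the 35 germline genes. Leaving it out turned the sign of the AzaC difference in nTregs, or moved it by over 1.5 times, for 22 of the 35 germline genes (5 turned), and did the same to the difference between the populations under PBS for 19 (4 turned). Such counts were not made for the other arrays or for all genes, and small differences move easily when 1 of 3 arrays is left out. They therefore do not show that this array is unusual. Of the differences of single germline genes named below that involve its group, those moved that far by leaving it out are also given without it.

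Foxp3, which marks the sort, was 3.08 log2 units higher in nTregs than in CD4 cells with AzaC and 4.29 higher under PBS (SE 0.16 each). In the CD4 cells, sorted as Foxp3GFP-, Foxp3 was itself 1.57 higher with AzaC than with PBS (limma adjusted p = 0.000207), and in nTregs the difference was 0.35 (limma adjusted p = 0.294), or 0.17 without the array that stood apart. Of 7 Treg markers, 2 were called higher with AzaC in CD4 cells, Foxp3 and the IL-2 receptor gene Il2ra (0.59, limma adjusted p = 0.00383), and 0 passed in nTregs. Lrrc32 was not called in CD4 cells, but was 10.21, 9.94 and 9.89 with AzaC, against 9.19, 9.20 and 9.13 with PBS. Its SD in nTregs with PBS, which enters the spread of the test, was 0.69. In CD4 cells 4 of the 7 were above without overlap and 1 was below, against 11.4% and 12.2% of all genes. The mean of the 7 ran from 11.64 to 11.72 in nTregs with AzaC, from 11.19 to 11.61 in nTregs with PBS, from 10.08 to 10.14 in CD4 cells with AzaC and from 9.60 to 9.68 in CD4 cells with PBS. All 7 measured T cell genes were above the dim end, as were 1 of 9 B cell, 2 of 13 myeloid and 1 of 5 NK cell markers. Both CD8 genes were above it too, and in nTregs Cd8a was 1.39 and Cd8b1 0.72 higher with AzaC than with PBS (limma adjusted p = 0.00180 and 0.0213), or 1.18 and 0.63 without the array that stood apart (limma adjusted p = 0.00301 and 0.0547). In the same cells Eomes, of the NK list, rose by 0.96 (limma adjusted p = 0.00130) and Itgam, of the myeloid list, fell by 0.94 (limma adjusted p = 0.0335), while 0 markers of the B cell, myeloid, NK and CD8 lists passed in CD4 cells. The mean of the 2 CD8 genes ran from 9.62 to 9.75 in nTregs with AzaC, from 8.35 to 8.96 in nTregs with PBS, from 8.11 to 8.54 in CD4 cells with AzaC and from 8.46 to 8.55 in CD4 cells with PBS, and the part of the marker shifts in the results was not tested. In these bulk samples, fewer cells with a transcript and less of it per cell cannot be told apart.

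The first question was whether AzaC brought the germline genes up in nTregs. By the test none was called. The count was 0 of 35 at an adjusted p of 0.05 in limma with Benjamini-Hochberg adjustment over all 22180 genes, against 2.02% of all genes. At so low a share, a set of 35 genes can hold no call without differing from all genes. The same applies to the counts of 0 below for AzaC in CD4 cells, for the averaged effect and for the interaction. At an unadjusted p of 0.05 there were 4, against 16.8% of all genes: 1 was higher (against 9.11%) and 3 were lower (against 7.66%). The median difference was -0.02, beside -0.04 over all genes, with 14 positive and 21 negative. The AzaC and PBS arrays did not overlap for 4 germline genes, against 24.5% of all genes, with 2 above (against 11%) and 2 below (against 13.5%).

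Rhox5 gave the largest positive difference in nTregs. It was 6.95, 6.78 and 6.87 with AzaC, against 6.70, 6.51 and 6.39 with PBS, a difference of 0.34 (SE 0.14, limma adjusted p = 0.242). All 3 AzaC arrays were above all 3 PBS arrays, yet all 6 values were close to the dim end. Piwil4 was 7.00, 7.08 and 7.03 with AzaC, against 6.85, 6.77 and 6.85 with PBS, again without overlap and with a difference of 0.22 (SE 0.14, limma adjusted p = 0.433).

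Of the negative differences, Dmrtb1 had 6.18, 6.23 and 6.28 with AzaC, against 6.52, 6.62 and 6.51 with PBS (difference -0.32, limma adjusted p = 0.247). Ddx4 had 4.90, 5.08 and 5.01 with AzaC, against 5.50, 5.21 and 5.14 with PBS (difference -0.29, limma adjusted p = 0.203). Both were without overlap, and the highest Ddx4 value was on the PBS array that stood apart: without that array the Ddx4 difference was -0.18. Zfp42 had 5.32, 5.76 and 5.32 with AzaC, against 5.86, 5.69 and 5.74 with PBS (difference -0.30, limma adjusted p = 0.270), and there the groups overlapped. Stag3 (-0.21), Sycp1 (0.22) and Taf7l (-0.17) completed the 8 members with the smallest p in nTregs, each with overlapping groups. Without replicate 3 of the nTregs with PBS Stag3 was at -0.10, and without replicate 2 Sycp1 was at 0.12. Leaving out the array that stood apart, 0 germline genes passed the test in nTregs as well.

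In CD4 cells 0 of 35 germline genes passed the test of AzaC against PBS, beside 1.76% of all genes. At an unadjusted p of 0.05 there were 4, against 15.2% of all genes: 3 were higher (against 7.45%) and 1 was lower (against 7.77%). The median difference was 0.05, beside 0.01 over all genes. The groups did not overlap for 2 germline genes, Rec8 and Dppa3, against 23.6% of all genes; both were above (against 11.4%) and 0 were below (against 12.2%).

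Rec8 gave the largest difference of any member in CD4 cells. It was 8.31, 8.35 and 8.53 with AzaC, against 7.76, 7.84 and 8.08 with PBS, a difference of 0.50 (SE 0.16, 95% interval 0.17 to 0.84, limma adjusted p = 0.137). All 3 AzaC values were above all 3 PBS values. The test estimates 1 spread from all 12 arrays, and without the nTreg array that stood apart the same difference had an adjusted p of 0.0230. In nTregs Rec8 was 8.47, 8.77 and 8.61 with AzaC, against 8.11, 8.73 and 8.66 with PBS, and these values overlapped (difference 0.12, SE 0.16). The lowest PBS value, 8.11, is that of the array that stood apart, and without it the nTreg difference was -0.07, the opposite sign. The difference between the 2 AzaC effects on Rec8 was -0.38 (SE 0.22, limma adjusted p = 0.369), or -0.58 without that array (limma adjusted p = 0.172), so the effects were not shown to differ between the populations.

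Rhox5 in CD4 cells was 6.96, 6.72 and 6.99 with AzaC, against 6.21, 6.58 and 6.74 with PBS (difference 0.38, SE 0.14, limma adjusted p = 0.212). One AzaC value lay just below the highest PBS value, and without replicate 1 of the PBS arrays the difference was 0.23 (limma adjusted p = 0.430). Asz1, a mitochondrial-membrane protein of the piRNA pathway, was 4.61, 4.27 and 4.73 with AzaC, against 4.69, 4.91 and 4.90 with PBS (difference -0.30, limma adjusted p = 0.260), all far down in the dim range, and without replicate 2 of the AzaC arrays it was at -0.16. Dmc1 was 6.26, 6.71 and 6.19 with AzaC, against 6.14, 5.97 and 6.22 with PBS (difference 0.28, limma adjusted p = 0.321), where replicate 2 of the AzaC arrays made most of the gap (0.12 without it). Piwil4 (0.29), Tex11 (0.28), Dmrtb1 (0.24) and Syce1 (0.19) followed, each with overlapping groups. Without replicate 3 of the PBS arrays Piwil4 was at 0.12 and Dmrtb1 at 0.09, and without replicate 1 of the AzaC arrays Tex11 was at 0.14. Of these 8 members, only Rec8 and Syce1 kept a difference within 1.5 times of the stated one whichever array was left out.

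**Figure D2:**
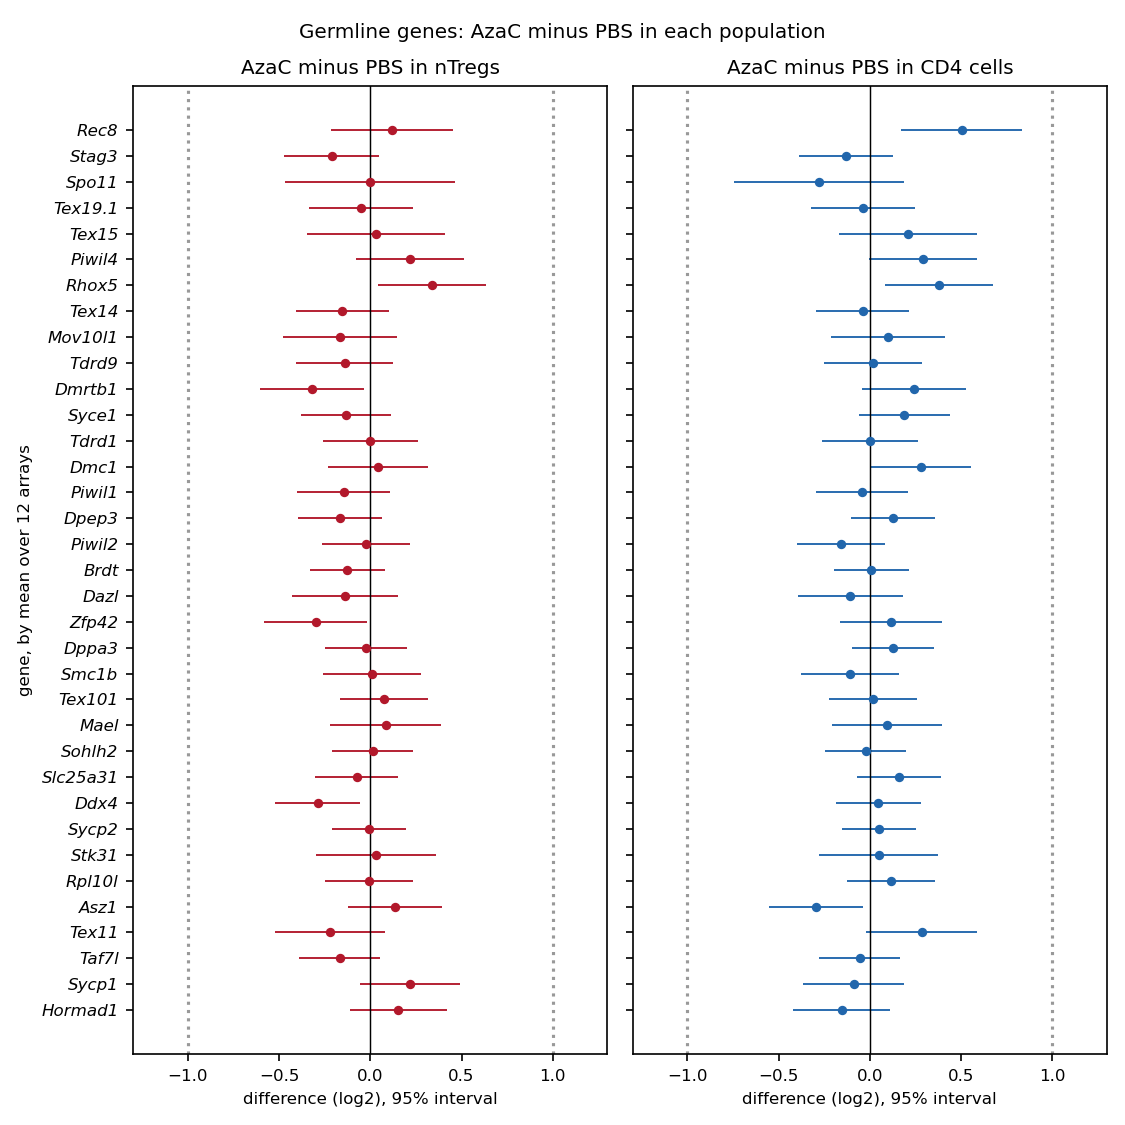
Difference between AzaC and PBS (log2, horizontal axis) for each measured germline gene, in nTregs on the left and in CD4 cells on the right, with points for the estimate and bars for its 95% interval from limma. All intervals lie between the dotted lines at -1 and 1, and the widest reach is that of Rec8 in CD4 cells, up to 0.84.

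Within the spread of these arrays, which may be technical, the intervals put a limit on what could have been missed at the level of array signal. Each interval is for 1 gene alone and is not adjusted for the number of genes. For all 35 germline genes the 95% interval of the AzaC difference stayed within 1 log2 unit of 0 in both populations. The highest upper bound was 0.63 in nTregs, for Rhox5, which is a 1.55-fold difference, and 0.84 in CD4 cells, for Rec8, which is a 1.79-fold difference. For members at the dim end these bounds hold for the signal, which understates a change in RNA. Changes of dim genes were called on these arrays: of 10429 genes at or below the dim end, 59 (0.566%) passed in nTregs and 23 (0.221%) in CD4 cells. The odorant receptor gene Olfr1352 was among the latter.

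Averaged over both populations, with 6 AzaC arrays against 6 PBS arrays, 0 of 35 germline genes passed, against 3.71% of all genes. At an unadjusted p of 0.05 there were 3, all higher, against 7.56% of all genes. The median difference was -0.00439, beside -0.00827 over all genes. Rhox5 came closest, at 0.36 (SE 0.10, unadjusted p = 0.0026 and adjusted p = 0.0613 in limma). Its 6 AzaC values lay between 6.72 and 6.99 and its 6 PBS values between 6.21 and 6.74. Rhox5 passed the test in 5 of 21 alternative settings, and when single arrays were left out its averaged difference ran from 0.28 (without replicate 1 of the CD4 cells with PBS, limma adjusted p = 0.126) to 0.42. Without the array that stood apart it was 0.40 (limma adjusted p = 0.0277), and without replicate 3 of the CD4 cells with PBS 0.42 (limma adjusted p = 0.0355). With every array centred on its median odorant receptor gene it was 0.43 (limma adjusted p = 0.0158). Over all settings its adjusted p ran from 0.00358 to 0.152 in limma. Rec8 (0.31, limma adjusted p = 0.166) and Piwil4 (0.25, limma adjusted p = 0.207) followed, and Stag3 (-0.17), Dmc1 (0.16), Ddx4 (-0.12), Dazl (-0.12) and Taf7l (-0.11) had larger p-values. Without replicate 3 of the CD4 cells with PBS Piwil4 was at 0.17, without replicate 2 of the CD4 cells with AzaC Dmc1 was at 0.08, without replicate 1 of the CD4 cells with PBS Dazl was at -0.07, and without the array that stood apart Ddx4 was at -0.07.

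The members did not share 1 direction. The AzaC difference was positive in both populations for 9 germline genes and negative in both for 8, while 5 were positive in nTregs and negative in CD4 cells and 13 the reverse (25.7%, 22.9%, 14.3% and 37.1%, beside 19.8%, 25.1%, 22.1% and 33% of all genes). These counts of sign depend on the scaling: in the same order they were 8, 8, 12 and 7 with every array centred on its median, and 13, 5, 8 and 9 with every array centred on its median odorant receptor gene. By role, the piRNA genes had a median averaged difference of -0.04 (10 genes, from -0.09 to 0.25) and the transcription and chromatin genes also -0.04 (7 genes, from -0.11 to 0.36). The meiotic cohesins pointed both ways, with Rec8 at 0.31, Smc1b at -0.05 (-0.000509 without the array that stood apart) and Stag3 at -0.17.

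Nor was a larger difference seen in members with more CpGs. Split at the median of 18.5 CpGs over the 30 measured members with a window, the 15 with more CpGs had a median averaged difference of -0.03 (from -0.17 to 0.09), and the 15 with fewer had -0.00439 (from -0.11 to 0.36). Ddx4, whose window held 38 CpGs, was at -0.12, and Rhox5, whose window held 5, was at 0.36.

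**Figure D3:**
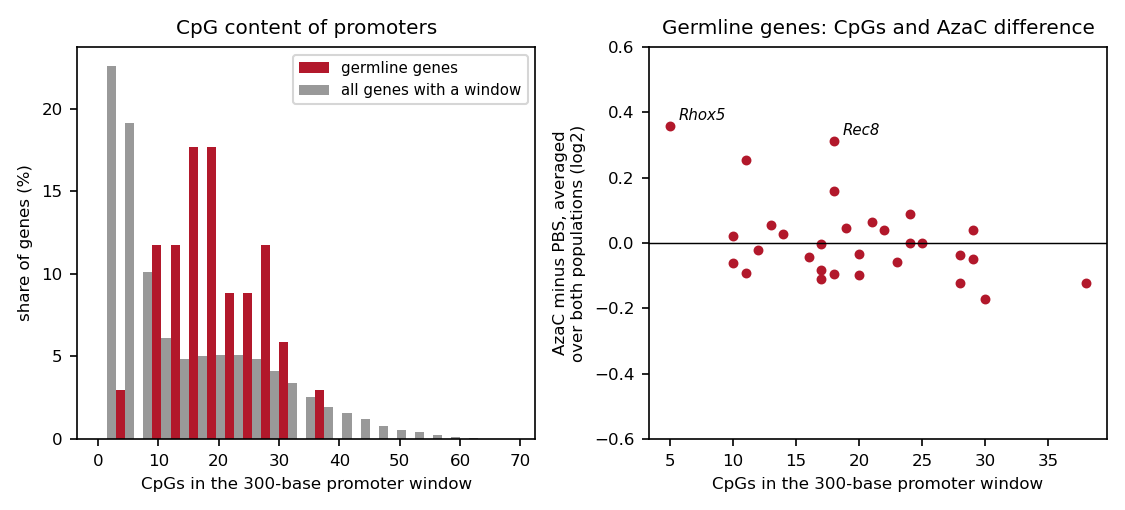
Left: share of genes (%, vertical axis) by the number of CpGs in the 300-base promoter window, for germline genes and for all genes with a window, where the medians are 18 and 8. Right: averaged AzaC difference (log2, vertical axis) against the number of CpGs for the measured germline genes. Rhox5 (0.36) and Rec8 (0.31) are the highest points, and the 15 genes with more than 18.5 CpGs lie at or below 0.09.

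Whether AzaC acted differently in the 2 populations was tested with the interaction term. None of the 35 germline genes passed (0, against 0.203% of all genes), and 5 had an unadjusted p under 0.05, against 17.5% of all genes, 1 of them higher (against 8.16%) and 4 lower (against 9.29%). These were Dmrtb1 (-0.56, SE 0.19, limma adjusted p = 0.204), Tex11 (-0.50), Asz1 (0.43), Zfp42 (-0.42) and Ddx4 (-0.33), where a negative value means that the AzaC difference was lower in nTregs than in CD4 cells. Syce1 (-0.32), Dpep3 (-0.29) and Hormad1 (0.31) came next. The median over the germline genes was -0.11, beside -0.04 over all genes, but it was 0.02 when each array was centred on its median and -0.005 when each was centred on its median odorant receptor gene.

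The populations themselves differed in 1 germline gene under PBS. Rec8 was higher in nTregs than in CD4 cells, at 8.11, 8.73 and 8.66 in nTregs with PBS, against 7.76, 7.84 and 8.08 in CD4 cells with PBS. The difference was 0.60 (SE 0.16, 95% interval 0.27 to 0.94, limma adjusted p = 0.0298), and all 3 nTreg values were above all 3 CD4 values. This was 1 of 35 germline genes, against 8.01% of all genes in either direction and 3.9% that were higher in nTregs, so the share of germline genes called was no larger than the background. Without the nTreg array that stood apart, which held the lowest Rec8 value of its group, the difference was 0.80 (limma adjusted p = 0.00130). The call was lost without replicate 1 or 2 of the CD4 cells with PBS (adjusted p = 0.103 and 0.0902 in limma) and without replicate 2 or 3 of the nTregs with PBS (adjusted p = 0.0933 and 0.0807 in limma), and the difference then stayed between 0.49 and 0.58. Fitted on the 6 PBS arrays alone it was not called (limma adjusted p = 0.135).

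With AzaC the Rec8 values of the populations overlapped, at 8.47, 8.77 and 8.61 in nTregs, against 8.31, 8.35 and 8.53 in CD4 cells (difference 0.22, SE 0.16, limma adjusted p = 0.451). The CD4 cells with PBS were thus the group with the lowest Rec8 values, 7.90 ± 0.17, while the other means were 8.62 ± 0.15 in nTregs with AzaC, 8.50 ± 0.34 in nTregs with PBS and 8.40 ± 0.12 in CD4 cells with AzaC (SD, n = 3 each). The Rec8 comparisons of AzaC in CD4 cells and of nTregs with CD4 cells under PBS share those 3 arrays and are not independent of each other.

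**Figure D4:**
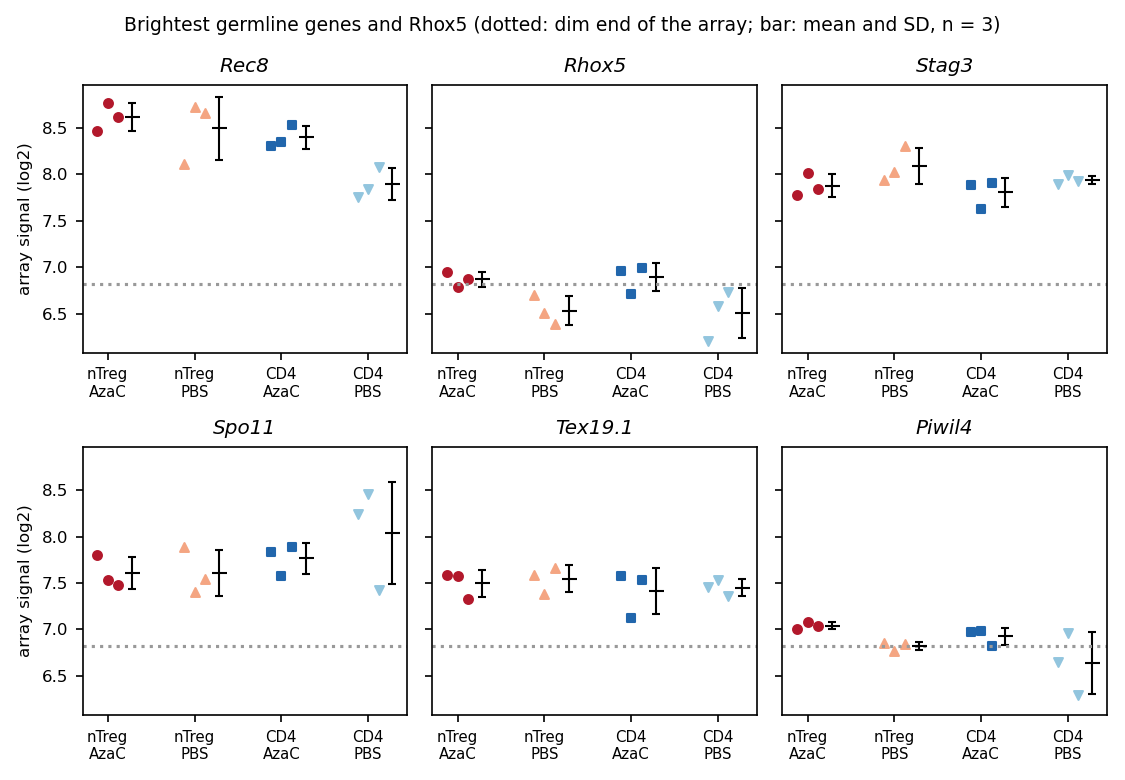
Array signal (log2, vertical axis) of 5 germline genes above the dim end and of Rhox5, with 1 point per array, 3 arrays in each of the 4 groups, and a bar for the mean and SD of each group. The dotted line is the dim end at 6.82. Rec8 is lowest in CD4 cells with PBS, Rhox5 straddles the dotted line, and Spo11 has its widest spread in CD4 cells with PBS (7.42 to 8.46).

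The other differences between nTregs and CD4 cells under PBS did not pass the test. Ddx4 was 0.26 higher (limma adjusted p = 0.173), but 0.15 without the array that stood apart, and Asz1 (-0.28) and Sycp1 (-0.29, or -0.19 without replicate 2 of the nTregs with PBS) were lower without overlap. Spo11 was 7.89, 7.40 and 7.54 in nTregs with PBS, against 8.24, 8.46 and 7.42 in CD4 cells with PBS (difference -0.43, SE 0.22, limma adjusted p = 0.252). Its replicate 3 in CD4 cells with PBS lay below the other 2, and without that array Spo11 was called lower in nTregs (-0.74, limma adjusted p = 0.0199), whereas without replicate 2 of that group it was at -0.22 (limma adjusted p = 0.576). Syce1 (0.24), Tex15 (0.31) and Sohlh2 (-0.18) overlapped, and without the array that stood apart they were at 0.15, 0.20 and -0.11. In all, 8 germline genes were without overlap between the populations, against 26.7% of all genes, with 5 above (against 13.5%) and 3 below (against 13.2%).

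With AzaC, 0 of 35 germline genes differed between nTregs and CD4 cells by the test, against 6.75% of all genes, and 3 were lower at an unadjusted p of 0.05, against 9.8%. Zfp42 was 5.32, 5.76 and 5.32 in nTregs, against 5.95, 5.75 and 5.93 in CD4 cells (difference -0.41, limma adjusted p = 0.0826). Replicate 2 of the nTregs alone overlapped the CD4 values, and without it the difference was -0.56 (limma adjusted p = 0.0208). Dmrtb1 (-0.38, limma adjusted p = 0.116) and Tex11 (-0.35, limma adjusted p = 0.168) were lower without overlap, and without replicate 3 of the CD4 cells with PBS the same Dmrtb1 difference had an adjusted p of 0.0470 in limma. Without replicate 1 of the CD4 cells with AzaC Tex11 was at -0.21 (limma adjusted p = 0.540) and Dmrtb1 at -0.29 (limma adjusted p = 0.384). Hormad1 (0.23), Brdt (-0.16), Slc25a31 (-0.16) and Tdrd9 (-0.18) had larger p-values, and leaving out 1 array took Hormad1 to 0.14 (replicate 2 of the CD4 cells) and Tdrd9 to -0.07 (replicate 1 of the nTregs). In all, 4 germline genes were without overlap, against 32.3% of all genes, with 1 above (against 15.1%) and 3 below (against 17.2%).

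The rows that carry several symbols were tested in a fit over all 41345 rows. The brighter row of Tuba3a and Tuba3b was 7.60, 7.30 and 7.21 with AzaC in CD4 cells, against 6.86, 7.15 and 6.90 with PBS, a difference of 0.40 (SE 0.17, limma adjusted p = 0.368). In nTregs it was 7.24, 6.73 and 7.35 with AzaC, against 7.15, 7.06 and 7.26 with PBS (difference -0.04). The other row of the pair differed by 0.18 in CD4 cells and 0.08 in nTregs, and the row of Sycp3 and Chpt1, near 4.3 on most arrays, by 0.07 and 0.21. None of the 3 rows was called in any comparison.

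Among 56 other germline and pluripotency genes, of which 55 were measured and 14 lay above the dim end, 2 passed the test of AzaC in nTregs, against 2.02% of all genes, and 1 passed in CD4 cells, against 1.76%. Both in nTregs rose. Mnd1, which promotes strand invasion with Dmc1, was 8.24, 7.64 and 8.38 with AzaC, against 7.45, 7.09 and 6.89 with PBS (difference 0.94, SE 0.19, limma adjusted p = 0.0209). Hsf2bp, which helps load Dmc1 in meiosis, was 7.19, 7.44 and 7.32 with AzaC, against 6.81, 6.92 and 6.49 with PBS (difference 0.58, limma adjusted p = 0.0345). In CD4 cells 0 passed as higher and 1 as lower. Msh5, a meiotic crossover factor, was 7.41 to 7.44 with AzaC, against 7.94 to 8.09 with PBS (difference -0.59, limma adjusted p = 0.0123). When each array was left out in turn, Mnd1 passed in 8 of 12 fits, Hsf2bp in 7 and Msh5 in 9. Here and in later counts of fits, leaving out an array outside the 2 groups compared cannot change the difference. Such fits move only the shared spread, so these counts overstate how stable the differences are. For Dmc1 itself the AzaC difference in nTregs was 0.04, or 0.02 without the array that stood apart.

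RNA of genes that act on DNA methylation or repress germline promoters was measured beside the germline genes. Of 14 measured DNA methylation enzymes and cofactors, 0 passed in nTregs and 1 in CD4 cells, against the same 2.02% and 1.76% of all genes. In CD4 cells the remodeller Hells, a helper of maintenance methylation, rose by 0.63 (limma adjusted p = 0.00637). The AzaC difference of Dnmt1, the maintenance methyltransferase, was 0.33 in nTregs and 0.22 in CD4 cells, that of Uhrf1 0.64 and 0.19, that of Dnmt3a 0.30 and 0.10, and that of Dnmt3b 0.30 and 0.08, none of them past the test. Without the array that stood apart the nTreg values were 0.08 for Dnmt1, 0.36 for Uhrf1, 0.31 for Dnmt3a and 0.19 for Dnmt3b. Of 22 repressors of germline promoters, Tfdp1, the dimer partner of E2F factors, rose in CD4 cells (0.60, limma adjusted p = 0.0223) and 0 passed in nTregs. In nTregs Tfdp1 was 11.50, 11.62 and 11.49 with AzaC, against 10.92, 11.26 and 11.21 with PBS, a difference of 0.41 without overlap. The lowest of these was on the array that stood apart. Averaged over both populations, 1 of the 22 was called, as higher, against 3.71% of all genes in either direction. Between the populations under PBS, Tet1, Tet2 and Tet3, which oxidise methylcytosine, and Uhrf1 were lower in nTregs (-0.58, -0.48, -1.24 and -0.83), as was the Polycomb gene Ring1 (-0.32). Without the array that stood apart these were -0.58, -0.46, -0.66, -0.56 and -0.26, and Tet2 and Ring1 no longer passed (limma adjusted p = 0.0899 and 0.105). Leaving out each array in turn, Tet1 passed in 12 of 12 fits, Uhrf1 in 11, Tet3 in 4, Tet2 in 2 and Ring1 in 2. The cell cycle inhibitor Cdkn1a, included as a check of drug action, was 1.95 higher with AzaC in CD4 cells (SE 0.12, limma adjusted p = 2.6e-06), and in nTregs the difference was 0.33 (limma adjusted p = 0.175), or 0.21 without the array that stood apart. Without the drug Cdkn1a already averaged 11.82 in nTregs, against 9.78 in CD4 cells, so the check is less telling for nTregs.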

How the data were processed

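RNA of 12 samples, 3 in each of 4 groups, was hybridised to Affymetrix arrays after biotin labelling of total RNA (WT Pico), per the labels' protocols. The authors deposited log2 values made by RMA; per the submitters' processing notes, the software was Affymetrix Expression Console, and tool versions and genome build are not given in the sources used here. RMA corrects background, quantile-normalizes the arrays and summarises probes. Array medians lay between 6.67 and 6.80. The values were used as deposited. Of 41345 rows, 23521 carried exactly 1 symbol in the platform annotation, 1814 several and 16010 none; the brightest row was kept for the 1082 genes with several, which left 22180 genes. Each germline gene measured had 1 row.

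All 12 arrays entered a single limma 3.58.1 model (R 4.3.3) that gave each group its own mean and left 8 residual degrees of freedom, with 6 contrasts and Benjamini-Hochberg adjustment over all genes. It was tested on simulated data. The threshold was an adjusted p of 0.05. Members were listed by name, without array values, but they and the other lists were chosen with earlier results of these data known. The text names every member, those called or among the 8 smallest p-values of a comparison with statistics, the genes of the related lists that were called, Dnmt1, Dnmt3a, Dnmt3b and Uhrf1, and Foxp3 and Cdkn1a as checks; of the calls between populations in those lists, some are given in the closing section. Promoter windows came from RefSeq. In total 22 alternative settings were run, 12 of which left out an array.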

Additional observations from a re-analysis of the deposited data

Results flagged for a closer look

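The row shared by Tuba3a and Tuba3b, which no comparison of the germline genes used because it carries several symbols, had an AzaC difference of 0.40 in CD4 cells with an unadjusted p of 0.0358 and an adjusted p of 0.368 in limma over all rows. All 3 AzaC values (7.60, 7.30 and 7.21) were above all 3 PBS values (6.86, 7.15 and 6.90). That was the rule by which the row was flagged, out of 3 shared rows looked at in 2 populations, so it adds no support. Of all genes, 11.4% were above without overlap in CD4 cells. The second row of the pair differed by 0.18. Which of the 2 genes gave the signal cannot be told apart.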

How the results depend on the processing

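The count of germline genes called for AzaC in nTregs was 0 under all 22 settings, and no value changed direction while past the threshold. In CD4 cells it was 0 to 1 when arrays were left out in turn (Rec8) and 2 with array weights (Rec8 and Rhox5). For the averaged effect it was 0 to 1 when arrays were left out (Rhox5), 1 with a filter that kept 12243 genes and 7 members (Rhox5, adjusted p = 0.0371 in limma), 2 with array weights (Rhox5 and Rec8) and 1 with odorant receptor centring. The interaction gave 1 with array weights (Rec8, -0.67, adjusted p = 0.0402 in limma). Between the populations under PBS the count of 1 became 0 with median centring (Rec8 adjusted p = 0.0704 in limma), 0 in a fit of only the 2 groups, 0 with odorant receptor centring, 0 with every row tested, 2 with array weights (Rec8 and Spo11) and 0 to 2 when arrays were left out. Rec8 kept its call there in 14 of 22 settings, with differences from 0.60 to 0.83 in those, and over all settings its difference ran from 0.49 to 0.83. With AzaC the count between the populations was 0 to 1 when arrays were left out and 2 with array weights (Zfp42 and Dmrtb1). The dim end set at the 90th percentile of odorant receptors or at the 25th percentile of all genes put 11 or 18 members above it.

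Over all genes, the 448 calls for AzaC in nTregs ranged from 125 to 1290 and the 391 in CD4 cells from 164 to 1291. The 822 averaged calls ranged from 504 to 1811 and the 45 interaction calls from 9 to 401. Between populations the 1777 calls under PBS ranged from 648 to 2528 and the 1498 with AzaC from 896 to 3500. Odorant receptor centring, added after seeing the data along with the test of every row, moved the median AzaC difference of all genes in nTregs by 0.12 and that of the germline genes to 0.09, and median centring moved that of the germline genes in CD4 cells to -0.03. The share of calls that were higher with AzaC in nTregs was 70.3% as deposited, 82.4% with median centring and 89% with odorant receptor centring, and in CD4 cells 47.1%, 27.3% and 55.2%. The cause of these shifts was not tested.

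Replicate numbers were not shown to pair the arrays. Same-numbered arrays had correlations of their deviations from the group means from -0.10 to 0.19. Differently numbered arrays were not set beside them, so this check cannot decide whether the arrays were paired. With the replicate number as a block, the counts of germline genes called were 0 for each AzaC contrast and 1 between populations under PBS (Rec8, adjusted p = 0.0119 in limma), and all genes called in nTregs numbered 451. Dim signal limits all results on members at or below the dim end.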

Other observations

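Genes outside the germline set that lay at or below the dim end on average did rise with AzaC; the examples were chosen after their values were seen. In nTregs these included Prg2, an eosinophil granule protein, with a difference of 1.12 (group means 7.30 with AzaC and 6.18 with PBS, limma adjusted p = 0.000903), Gldc, of the glycine cleavage system (0.98), Ubd, a ubiquitin-like modifier induced by interferon (1.28), Lacc1 (1.03) and the cell adhesion gene Dscam (0.87). In CD4 cells they included the glutamate receptor subunit Gria3 (0.87, limma adjusted p = 0.00844), App, the amyloid precursor (0.76), Adam22 (0.73), the steroid-making enzyme Cyp11a1 (0.62) and Eqtn, a sperm acrosome protein (0.72, limma adjusted p = 0.0314). Olfr1352, an odorant receptor gene of the yardstick, was called there as well (0.73, limma adjusted p = 0.0342). Its group means were 5.19 with AzaC and 4.46 with PBS. Calls of dim genes thus included a gene that T cells are not known to use.

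Of the related lists, Tdrd7, a tudor protein of germ granules, was higher in nTregs than in CD4 cells both under PBS (0.55) and with AzaC (0.56), and Mei4, which acts with Spo11 in double-strand break formation, was higher under PBS (0.55), passing in 5 of 12 fits that left out an array. Msh5 was lower in nTregs than in CD4 cells under PBS (-0.66). With AzaC, Hells (-0.75), Tet1 (-0.75) and the repressor Smchd1 (-0.47) were lower in nTregs than in CD4 cells, and the Polycomb gene Rybp was higher (1.04).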
